A study of Mus musculus with 21 samples.

Results

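The cytosolic ribosomal protein genes were followed in mouse CD4 T cells that had been cultured with cytokines for 5 days. They were taken as the rows of the expression table whose symbol begins with Rpl or Rps and a digit, without the Rps6k kinases and the rows named as pseudogenes, and with a TPM of 1 or more in 3 or more libraries. TPM is a transcript's share of its library after correction for transcript length, on a total that is the same in every library. Of 23415 rows 85 matched the symbols and 83 passed; Rpl10l and Rpl3l did not. The 83 comprise 49 large subunit and 34 small subunit symbols. By name, 73 are ribosomal proteins proper, 43 large and 30 small. The other 10 are paralogs or other rows that share the naming (Rpl22l1, Rpl32l, Rpl36al, Rpl37rt, Rpl39l, Rpl7l1, Rps19bp1, Rps27l, Rps27rt and Rps4l). Among the genes that the symbol rule does not reach are Rplp0, Rplp1, Rplp2, Rpsa, Fau and Rack1, whose products also sit on the ribosome, and these were described apart.

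The cytosolic ribosome makes nearly all of a cell's proteins. Its small subunit reads the mRNA and its large subunit joins the amino acids, and both are assembled in the nucleolus from ribosomal RNA and imported ribosomal proteins with the help of many assembly factors. Ribosomal protein mRNAs are among the most abundant mRNAs of a dividing cell. Most begin with a run of pyrimidines, the 5′ terminal oligopyrimidine (TOP) motif, through which their translation is regulated together, and T cells enlarge their ribosome pool when they are activated.

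All groups started from naive CD4 T cells (CD44low CD62Lhigh CD25-) of spleen and lymph nodes. The mice carried an eGFP reporter in 1 copy of Il23r, the gene of the IL-23 receptor, and the reporter copy makes no working receptor. The cells were activated on plate-bound antibodies against CD3 and CD28. Cultures held IL-12 (20 ng/ml), IL-12+IL-21 (20 ng/ml each), IL-1b+IL-6+IL-23 (20, 25 and 20 ng/ml) or TGFb+IL-6 (2 and 25 ng/ml). The cells were sorted as GFPpos or GFPneg, that is, by activity of the reporter, which gave 7 groups, since only GFPneg cells were taken from the culture with IL-12 by itself. IL-12 is known to drive Th1 cells. Th17 cells are obtained with IL-6 together with TGFb, or together with IL-1b and IL-23. With 1 working Il23r copy and no untreated culture, the groups show cytokine-treated heterozygous cells only. The labels do not tie replicates to separate mice or cultures, so each p-value measures only how far these samples spread, and that spread may be technical.

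Levels are given over the 16 of 21 libraries with at least 7000 genes at a TPM of at least 1 (7522 to 9248 genes). IL-12+IL-21 GFPpos and both IL-1b+IL-6+IL-23 groups then had 3 libraries, IL-12 GFPneg, IL-12+IL-21 GFPneg and TGFb+IL-6 GFPneg had 2, and TGFb+IL-6 GFPpos had 1. The 5 left out had 190 to 5608 such genes and held 28.1% to 56.7% of their TPM in the 83 genes. The 8 CD4 T cell markers were present in all 7 groups, with a summed level of 2225 to 3912 TPM. Summed B cell markers reached at most 1.35 TPM, myeloid markers 2.52, CD8 markers 17.5, and erythroid and neutrophil markers 1.05. The 5 natural killer markers summed to 8.77 to 9.34 TPM in TGFb+IL-6 GFPneg and to at most 6.98 elsewhere. In the TGFb+IL-6 groups 4 of the 5 were undetected, so the sums there came from 1 gene. In the other groups 3 of the 5 were undetected. The part of these markers in the results was not tested. Read depth cannot be recovered from TPM. In sorted bulk cells, fewer cells of a type and less RNA per cell cannot be told apart, and a share of TPM says nothing of the amount of RNA per cell.

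The start sites of genes that differed between groups are shown first, because the run of pyrimidines there is the feature these genes are known to share. Each window holds 30 bases before and 30 bases from the RefSeq start (GRCm38.p6), on the strand of the gene, and capitals mark runs of at least 8 bases that are C or T. Rps6 (minus strand, chr4:86857338-86857397), Rps9 (plus, chr7:3704011-3704070), Rps15a (minus, chr7:118116118-118116177), Rpl13 (plus, chr8:123102320-123102379), Rpl22l1 (plus, chr3:28805478-28805537) and the first of 2 starts of Rps27l (plus, chr9:66946056-66946115) had such a run. Rps16 (plus, chr7:28350659-28350718), Rpl24 (plus, chr16:55966245-55966304) and Rpl7l1 (minus, chr17:46782627-46782686) had none. A TOP motif begins the mRNA, while a marked run may lie anywhere in the window. The longest runs of Rpl13, Rps15a and Rps27l begin at -16, -15 and -22 from the start and end before it, while the other marked run of Rps15a spans it. A marked run, or its lack, therefore neither shows nor excludes a TOP motif.
Rps6: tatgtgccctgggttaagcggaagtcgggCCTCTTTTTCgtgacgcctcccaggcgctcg
Rps9: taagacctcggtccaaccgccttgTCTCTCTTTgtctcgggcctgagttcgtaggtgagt
Rps15a: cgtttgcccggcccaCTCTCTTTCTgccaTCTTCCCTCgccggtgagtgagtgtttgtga
Rpl13: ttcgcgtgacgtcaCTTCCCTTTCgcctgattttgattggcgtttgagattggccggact
Rpl22l1: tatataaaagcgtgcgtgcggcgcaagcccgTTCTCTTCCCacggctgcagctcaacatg
Rps27l: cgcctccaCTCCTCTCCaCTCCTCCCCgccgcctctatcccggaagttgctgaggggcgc
Rps16: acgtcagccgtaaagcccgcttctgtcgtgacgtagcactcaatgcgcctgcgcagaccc
Rpl24: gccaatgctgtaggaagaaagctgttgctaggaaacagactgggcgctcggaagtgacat
Rpl7l1: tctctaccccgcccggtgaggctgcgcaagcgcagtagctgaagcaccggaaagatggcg

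A usable RefSeq start was found for 63 of the 83 genes. Sequences of chromosome 18, or with letters other than A, C, G and T, were not used. Of these 63 genes 35 (55.6%) had a pyrimidine run of at least 8 in the window, against 25.8% of the 27018 genes with a usable start. A run of A or G of that length stood in 12.7% against 28.7%. In the 300 bases around the start (250 before to 50 from it), read on both strands, CCGGAAG, letters of the ETS factor site, was in 24 of 63 (38.1%) against 9.93% of all. AAGATGGC, letters of a YY1 site, was in 9.52% against 3.19%, TATAAA in 11.1% against 15.7%, and CACGTG, the E-box of Myc, in 9.52% against 8.09%. These counts describe letters and show no binding.

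By level, the 83 genes took 31.5% to 42.4% of all TPM in the 16 libraries. The large subunit symbols held 17.8% to 23.7% and the small subunit symbols 13.6% to 18.7%, and the ratio of large to small lay between 1.27 and 1.34. Ribosomal protein genes made up 4 of the 10 most abundant genes and 28 of the 50 most abundant. The 73 proteins proper held 98.5% of the TPM of the 83.

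Rpl41, which encodes the shortest ribosomal protein, a peptide of the large subunit, was the most abundant of the 83 and the second most abundant row of the table, at 19056 to 28414 TPM and 6.39% of the TPM of the 83. Rpl23a (mean of group means 11256 TPM), Rpl32 (8250), Rpl39 (8099) and Rpl19 (7729) followed in the large subunit. In the small subunit Rps27 (13269), Rps26 (11049), Rps28 (8971), Rps19 (8640) and Rps14 (7477) led. The median over the 73 proteins proper was 4482 TPM, and 69 of them averaged at least 1000. The 4 below that were Rpl22 (147 TPM), Rps15a (234), Rps20 (334) and Rpl31 (799), so the proteins of 1 particle, which are each present once or nearly so, had transcript levels that spanned 147 to 22986 TPM.

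These low levels stand beside features of the gene models. In GENCODE M21 (GRCm38) the middle coding transcript by length of Rps20 has 3706 bases and that of Rpl22 has 2048, and TPM divides by length. Rps15a shared 54.6% of its 38-base windows, the length of a read, with other genes. The table's row Rps15a-ps6, a pseudogene, stood at 388 to 926 TPM and Rps15a-ps4 at 277 to 696, both above Rps15a itself in the mean of every group. Of 80 members with a coding transcript 46 shared at least 50% of such windows with another gene, so reads could be split between copies, and separate values of Rps27 and Rps27rt (91.4% of the windows of Rps27rt), Rpl26, Rpl14, Rpl30 and Rpl22l1, which share most of their windows with another row, are uncertain. The part of length and copies in the levels was not tested.

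**Figure D1:**
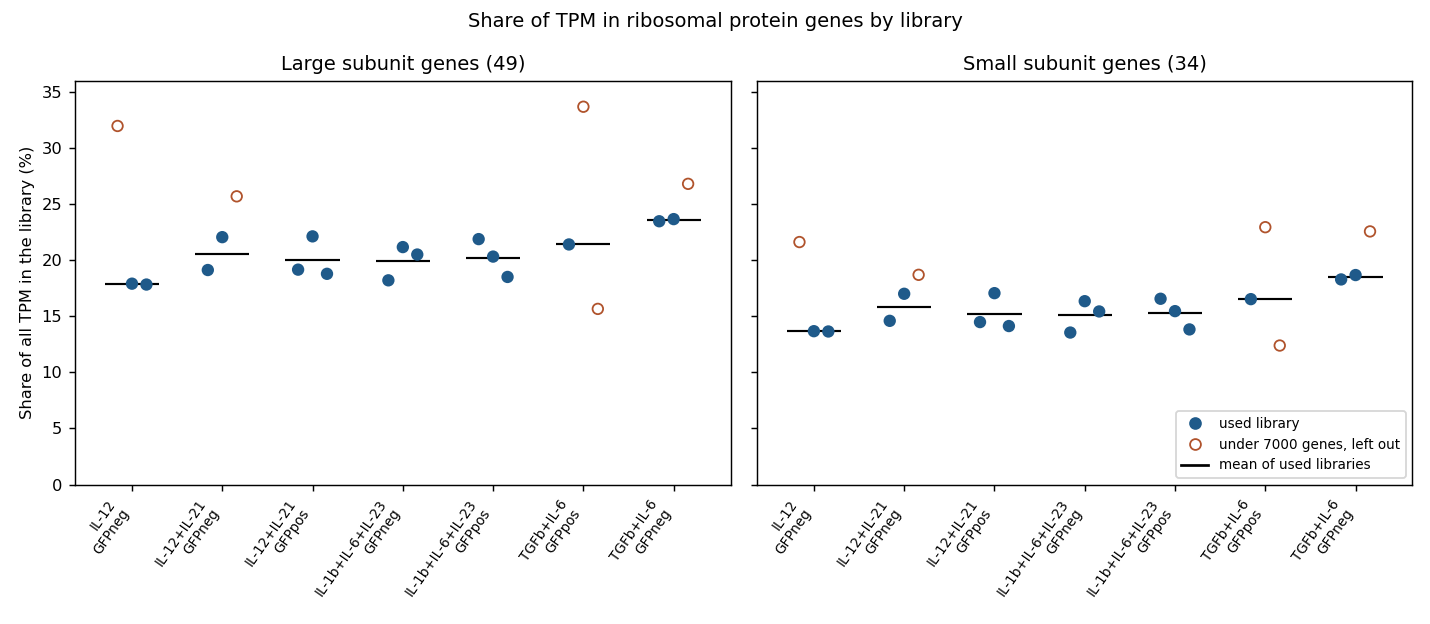
Share of all TPM (%, vertical axis) in the 49 large and 34 small subunit symbols for each library, by group, with lines at the mean of the used libraries. The 2 TGFb+IL-6 GFPneg libraries lie above the other used libraries in both panels, and open circles mark the 5 libraries left out.

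Across the 7 groups, the share was lowest in IL-12 GFPneg and highest in TGFb+IL-6 GFPneg. The large subunit held 17.9% ± 0.0551 (SD, n = 2) in IL-12 GFPneg, 20.0% ± 1.56 (n = 3) in IL-1b+IL-6+IL-23 GFPneg and 20.3% ± 1.69 (n = 3) in its GFPpos cells. It held 20.0% ± 1.83 (n = 3) in IL-12+IL-21 GFPpos, 20.6% ± 2.07 (n = 2) in IL-12+IL-21 GFPneg, 21.4% in the single TGFb+IL-6 GFPpos library and 23.6% ± 0.134 (n = 2) in TGFb+IL-6 GFPneg. The group means of the small subunit, in the sequence just given, were 13.7% ± 0.0188, 15.1% ± 1.43, 15.3% ± 1.38, 15.2% ± 1.60, 15.8% ± 1.71, 16.5% and 18.5% ± 0.277.

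Both subunits together held 41.8% and 42.4% in the TGFb+IL-6 GFPneg libraries, above the highest of the other 14 (39.2%). They held 31.5% and 31.6% in IL-12 GFPneg, below the lowest of the other 14 (31.8%). For the small subunit alone, IL-1b+IL-6+IL-23 GFPneg replicate 1 (13.6%) lay below both IL-12 libraries (13.7% each), so the groups overlapped there. The 5 groups in between overlapped with their neighbours or, for TGFb+IL-6 GFPpos, lay within the range of the others, so no order among them exceeded the spread of libraries. No test was run on the shares. The TGFb+IL-6 GFPneg libraries had 7522 and 8053 genes at a TPM of at least 1, against 7912 to 9248 in the other 14. Rows named RNR1, RNR2 and TRN held 2.78% to 3.21% of their TPM, and up to 6.70% over the 16. The part of gene number and of these rows in the shares was not tested.

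In 30 of the 83 genes both TGFb+IL-6 GFPneg libraries lay above all other 14, which held for 1.93% of all 9592 tested genes. In 18 both IL-12 GFPneg libraries lay below all other 14, against 2.58% of all. Among those in both sets were Rpl10a, Rpl14, Rpl35a, Rpl37, Rps3, Rps7, Rps14, Rps15, Rps15a and Rps19. Rpl7l1, a paralog of Rpl7, was the only one of the 83 that lay on the far side both times, lowest in TGFb+IL-6 GFPneg (12.8% of all genes) and highest in IL-12 GFPneg (4.93% of all).

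**Figure D2:**
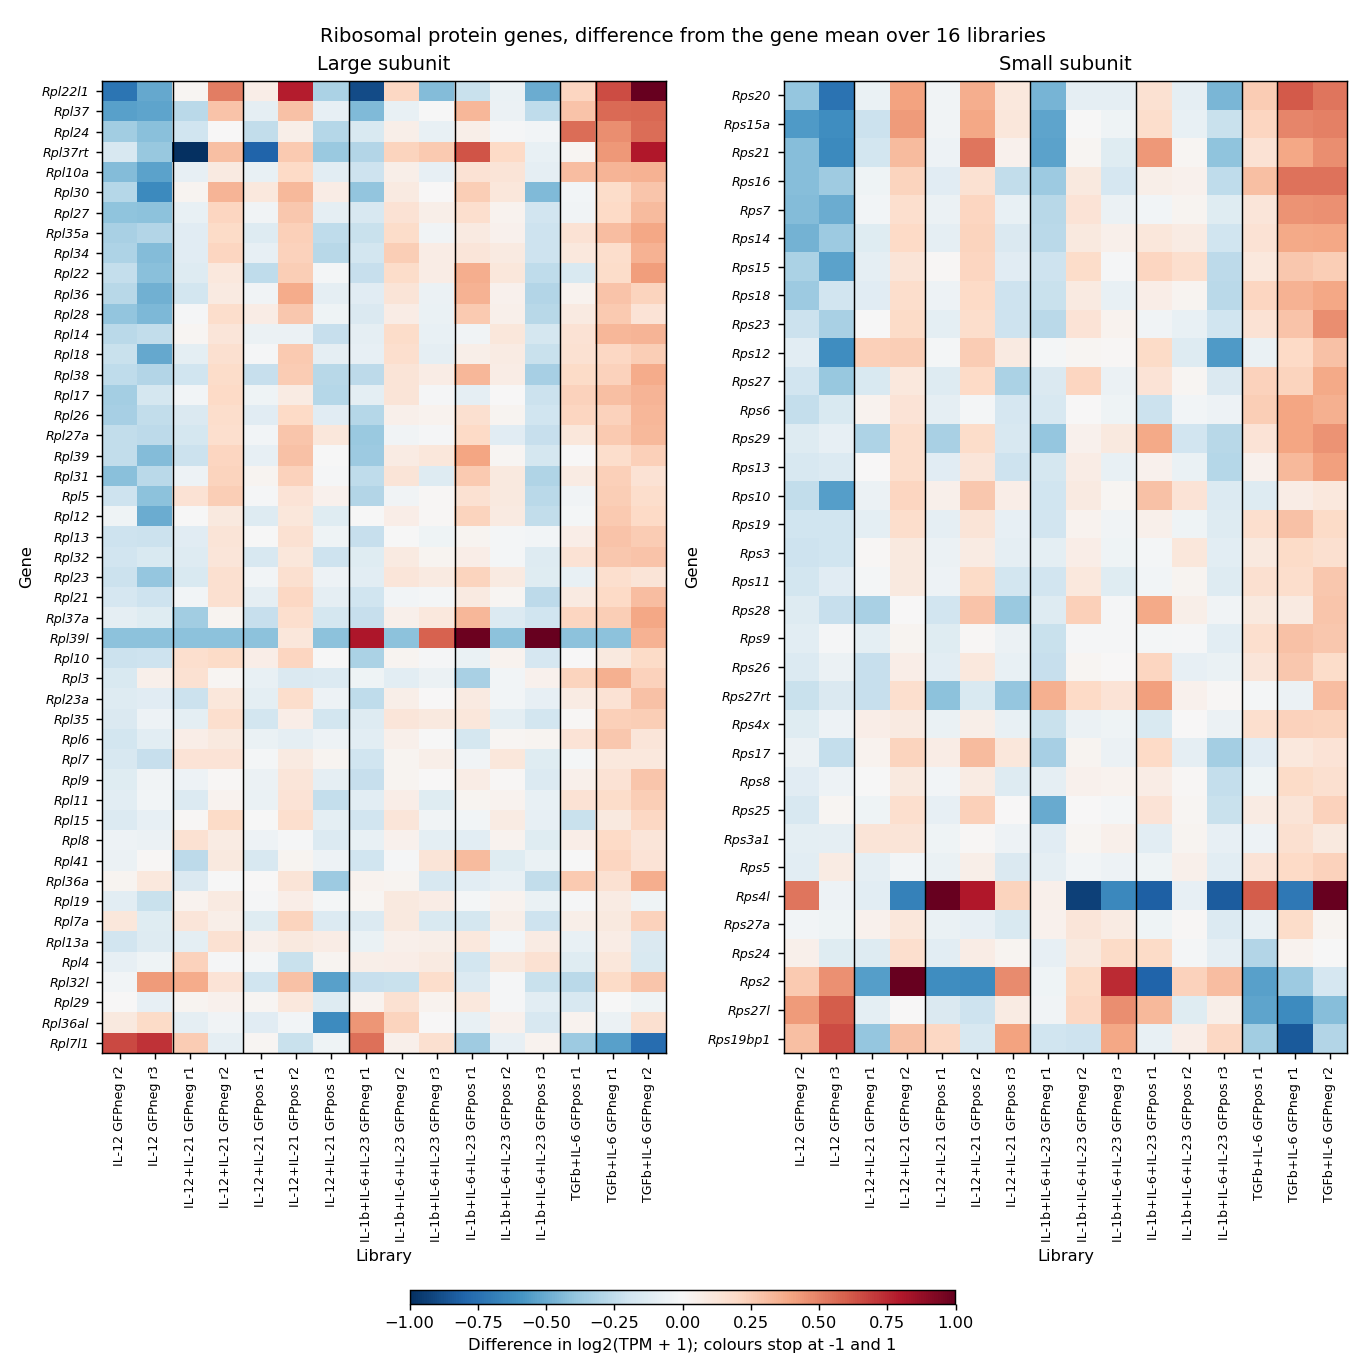
Difference of 82 of the 83 genes (rows) from their own mean over the 16 libraries (columns, by group), in log2(TPM + 1), with red above and blue below the mean. Genes are ordered by the difference between TGFb+IL-6 GFPneg and IL-12 GFPneg, which puts Rpl7l1, Rps27l and Rps19bp1, higher in IL-12 GFPneg, at the bottom.

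Single genes differed little between libraries. Between the lowest and the highest library a protein proper differed by a median of 1.59 times. On the log2(TPM + 1) scale, the range of the 7 group means had a median of 0.50 over the 73 proteins proper and 1.03 over the 10 other rows, and the SD within groups a median of 0.15 and 0.29. The narrowest ranges were those of Rps27a (0.20), whose protein is made as a fusion with ubiquitin, Rpl8 (0.22), Rpl19 (0.23), Rps3a1 (0.23) and Rpl4 (0.23). The widest were those of Rpl22l1 (1.55), Rpl7l1 (1.35), Rps4l (1.25), Rps20 (1.14) and Rpl37 (1.11). Rps4l lay at only 1.14 to 11.8 TPM and Rpl39l, a paralog known from testis, at 0 to 2.12 TPM, so their ranges rest on low values.

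Differences between groups were tested with limma on log2(TPM + 1), 1 fit over the 16 libraries, with Benjamini-Hochberg adjustment over all 9592 genes and an adjusted p under 0.05 as the threshold. In the F test over the 7 groups 12 of the 83 genes (14.5%) passed, against 24.9% of all genes. They were Rpl24 (adjusted p = 0.000966), Rpl7l1, Rps27l, Rpl10a, Rps7, Rps16, Rps6, Rps20, Rpl37, Rpl22l1, Rps15a and Rps14. With 1 library left out, 5 to 17 passed. There were 8 without IL-12 GFPneg replicate 2, 6 without IL-12 GFPneg replicate 3, and 7 and 5 without TGFb+IL-6 GFPneg replicates 1 and 2. Median-ratio scaling, which sets libraries by their typical gene, gave 6.

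The comparison of GFPneg cells of TGFb+IL-6 with those of IL-1b+IL-6+IL-23, both cultures of the Th17 kind, gave the only calls among these genes in the 7 comparisons. In TGFb+IL-6, 14 of the 83 (16.9%) rose, where 4.83% of all genes did, and 2 (2.41%) fell, where 10.6% of all did. The median difference of the 83 was 0.28, with 71 above 0, against a median of -0.23 over all genes. Groups did not overlap for 64 genes that were higher and 5 that were lower, against 12.6% and 31.2% of all genes. Large and small subunit symbols had medians of 0.28 and 0.29. Median-ratio scaling moved the median of all genes to -0.01 and that of the 83 to 0.59, with 10 higher and 1 lower. Over all genes it gave 835 higher and 729 lower, against 463 and 1015 here. Scaling to the genes outside the 83 gave 19 higher and 2 lower, and 625 and 836 over all genes.

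Rps16, a protein of the small subunit head, was at 4152, 5726 and 4752 TPM in IL-1b+IL-6+IL-23 GFPneg and at 7817 and 7802 in TGFb+IL-6 GFPneg. It rose by 0.69 ± 0.15 (SE; n = 3 and 2; limma adjusted p = 0.00538). Its groups did not overlap, and the single TGFb+IL-6 GFPpos library (6587 TPM) also lay above the other 13 libraries. Of the 16 called genes it was the only one that passed in each of the 5 fits with 1 of the compared libraries left out.

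Rpl24, a large subunit protein at the interface of the subunits, was at 3207, 3709 and 3382 TPM against 4916 and 5241. It rose by 0.57 ± 0.12 (adjusted p = 0.00476 by limma), and the TGFb+IL-6 GFPpos library, at 5227, stood with the higher group. Without TGFb+IL-6 GFPneg replicate 2 it did not pass.

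Rps6, the small subunit protein that S6 kinases phosphorylate downstream of mTORC1, was at 2875, 3234 and 3116 TPM against 4228 and 4114. The groups did not overlap, and the rise was 0.44 ± 0.11 (adjusted p = 0.00999 by limma). It did not pass without TGFb+IL-6 GFPneg replicate 1 (adjusted p = 0.0715) or replicate 2 (0.0636).

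Rpl22l1, the paralog of the RNA-binding large subunit protein Rpl22, changed most in size, with 364.6, 786 and 504 TPM against 1073 and 1575. The rise was 1.31 ± 0.31 (adjusted p = 0.0104 by limma), and it did not pass without TGFb+IL-6 GFPneg replicate 2 (adjusted p = 0.156). Rpl22 itself was at 126, 167 and 155 TPM against 167 and 197 (0.29 ± 0.21, adjusted p = 0.376). The ratio of Rpl22l1 to Rpl22 was 3.62 ± 0.955 (SD, n = 3) in IL-1b+IL-6+IL-23 GFPneg, 7.21 ± 1.10 (n = 2) in TGFb+IL-6 GFPneg and 3.83 ± 0.748 (n = 2) in IL-12 GFPneg. It was 5.13 and 6.11 in IL-12+IL-21 GFPneg, 3.76 to 6.72 in IL-12+IL-21 GFPpos, 3.08 to 4.07 with IL-1b+IL-6+IL-23 after the GFPpos sort and 5.96 in TGFb+IL-6 GFPpos, so the highest IL-12+IL-21 GFPpos library lay above the lower TGFb+IL-6 GFPneg library (6.43). Rpl22l1 shares 59.8% of its windows with the row Gm15421, so reads may be split between the rows.

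The other 10 that rose did so by 0.33 to 0.79 on the log2 scale. In the small subunit they were Rps20 (0.79 ± 0.21, adjusted p = 0.0167), Rps15a (0.69), Rps7 (0.52), Rps13 (0.42), Rps9 (0.36) and Rps4x (0.33), the X-linked form of Rps4. In the large subunit they were Rpl37 (0.74 ± 0.20, adjusted p = 0.0178), Rpl10a (0.42), Rpl13 (0.36) and Rpl3 (0.36), which reaches towards the peptidyl transferase centre. Rpl3 passed in none of the 5 fits with 1 library left out, Rpl10a, Rpl13 and Rps13 in 1, and the other 6 in 2. Of the 14 that rose 12 had a usable RefSeq start, and 7 of these a pyrimidine run of at least 8 in the window. Over all members with such a start the run stood in 35 of 63 (55.6%), so the count does not set these genes apart. The most abundant member of each subunit did not pass. Rpl41 was at 19891, 22697 and 24978 TPM against 26496 and 25089 (0.20 ± 0.14, adjusted p = 0.363), and Rps27 differed by 0.29 ± 0.15 (adjusted p = 0.212). Rps19 (0.30, adjusted p = 0.0829), Rpl10 (0.24), Rpl39 (0.26), Rps24 (-0.05) and Rpl13a (-0.05) did not pass either.

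The 2 that fell were paralogs. Rpl7l1, whose product is known as a factor of early large subunit assembly, was at 187, 132 and 142 TPM against 86.7 and 74.6, and fell by 0.91 on the log2 scale (SE 0.19; limma adjusted p = 0.0035). It was at 202 and 211 TPM in IL-12 GFPneg. Rps27l, a paralog of Rps27 known as a p53 target, was at 1058, 1252 and 1498 TPM against 702 and 807, and fell by 0.74 (SE 0.16; adjusted p = 0.00611). Rpl7l1 did not pass without TGFb+IL-6 GFPneg replicate 2 (adjusted p = 0.0641), and Rps27l did not without replicate 1 (0.0724) or with median-ratio scaling (log2 change -0.43, adjusted p = 0.213). Its ratio to Rps27 was 0.0981 ± 0.0198 (SD, n = 3) in IL-1b+IL-6+IL-23 GFPneg, 0.0473 ± 0.000962 (n = 2) in TGFb+IL-6 GFPneg, and 0.148 ± 0.0264 (n = 2) in IL-12 GFPneg. In the TGFb+IL-6 GFPpos library it was 0.0495, below the 13 libraries of the other cultures.

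These counts rest on few libraries. Without TGFb+IL-6 GFPneg replicate 1 there were 5 calls among the 83 (4 higher, 1 lower) and without replicate 2 there were 2 (1 and 1). Without IL-1b+IL-6+IL-23 GFPneg replicate 1 there were 6 (4 and 2), and without replicate 2 or 3 there were 18 and 12. With all 21 libraries, or with the 18 that had the most genes, limma called 0. Calls over all genes dropped as well, from 1478 of 9592 to 16 of 9657 with 21 libraries and 108 of 9649 with 18.

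**Figure D3:**
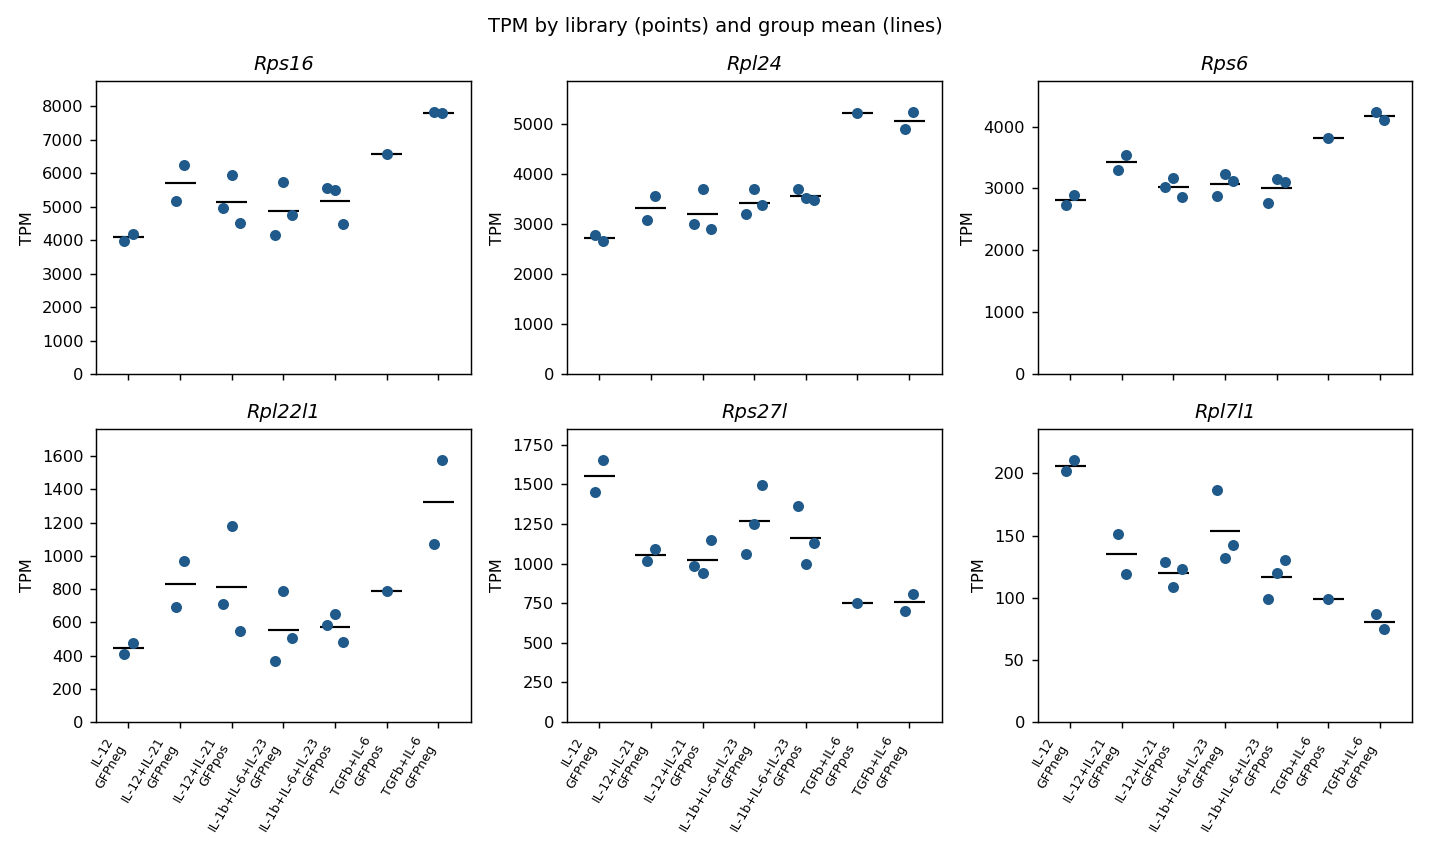
TPM (vertical axis, from 0) of Rps16, Rpl24, Rps6, Rpl22l1, Rps27l and Rpl7l1 in each of the 16 libraries, by group, with lines at group means. Group means of Rps16, Rps6 and Rpl22l1 are highest in TGFb+IL-6 GFPneg and that of Rpl24 in the single TGFb+IL-6 GFPpos library, while those of Rps27l and Rpl7l1 are highest in IL-12 GFPneg.

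Other genes of ribosome production and translation were taken from lists. Of 57 ribosome biogenesis genes 17 fell in TGFb+IL-6 GFPneg and 0 rose, with a median of -0.55, where 10.6% of all genes fell, 4.83% rose and the median was -0.23. With median-ratio scaling 13 fell (median -0.27), and with scaling to the genes outside the 83 15 did (-0.41). Among them were Nop10 (-1.48 ± 0.24, adjusted p = 0.000433), a subunit of the H/ACA particles that guide pseudouridylation, Pno1 (-1.42 ± 0.25), which acts in small subunit assembly, Sbds (-1.24 ± 0.23), which helps to release eIF6 from the large subunit, and Polr1c (-1.04), a subunit of RNA polymerases I and III. Without TGFb+IL-6 GFPneg replicate 2 there were 4, without IL-1b+IL-6+IL-23 GFPneg replicates 1 and 3 there were 10 and 11, and without either other library 13. Summed, the 57 were at 2836 to 3018 TPM in IL-1b+IL-6+IL-23 GFPneg and 1888 to 2027 in TGFb+IL-6 GFPneg, and at 3635 to 3962 in IL-12 GFPneg.

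The same 10.6% and 4.83% of all genes stand beside the counts that follow. Of 28 initiation factor genes 5 fell (Eif1a, Eif4g2, Eif2b1, Eif4a2 and Eif1ax) and 0 rose, with Eif1a at -1.56 ± 0.23 (adjusted p = 0.000175). Of 22 elongation factor and other TOP mRNA genes 4 rose (Naca, Eif3k, Vim and Impdh2) and 0 fell, with a median of 0.24. This second list also holds initiation factor genes with TOP mRNAs, so the 28 are not all initiation factors. Of those in the second list only Eif3k passed, with a rise of 0.47 ± 0.14 (adjusted p = 0.0314 by limma). Of 18 tested regulators of ribosomal protein mRNA 1 fell, Myc, a transcription factor that drives ribosome production, at -1.10 ± 0.19 (adjusted p = 0.000849). Its group means were 178 TPM in IL-1b+IL-6+IL-23 GFPneg and 82.0 in TGFb+IL-6 GFPneg.

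Among the ribosomal proteins outside the symbol rule, Rpsa, the small subunit protein also known as the laminin receptor, rose by 0.55 ± 0.13 (adjusted p = 0.0104). Fau (0.30, adjusted p = 0.0573), Rplp2 (0.20), Rplp1 (0.12), Rplp0 (-0.10) and Rack1 (-0.11) did not pass. Proliferation genes stood apart in the same comparison. Of 22, 20 rose and 0 fell, with a median of 1.77, and their sum was at 341 to 434 TPM in IL-1b+IL-6+IL-23 GFPneg and 1171 to 1303 in TGFb+IL-6 GFPneg. Elsewhere that sum was 281 to 369 with IL-1b+IL-6+IL-23 after the GFPpos sort, 579 to 666 in IL-12+IL-21 GFPpos, 805 to 910 in IL-12+IL-21 GFPneg, 823 to 871 in IL-12 GFPneg and 883 in TGFb+IL-6 GFPpos. The part of proliferation in the ribosomal protein levels was not tested.

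**Figure D4:**
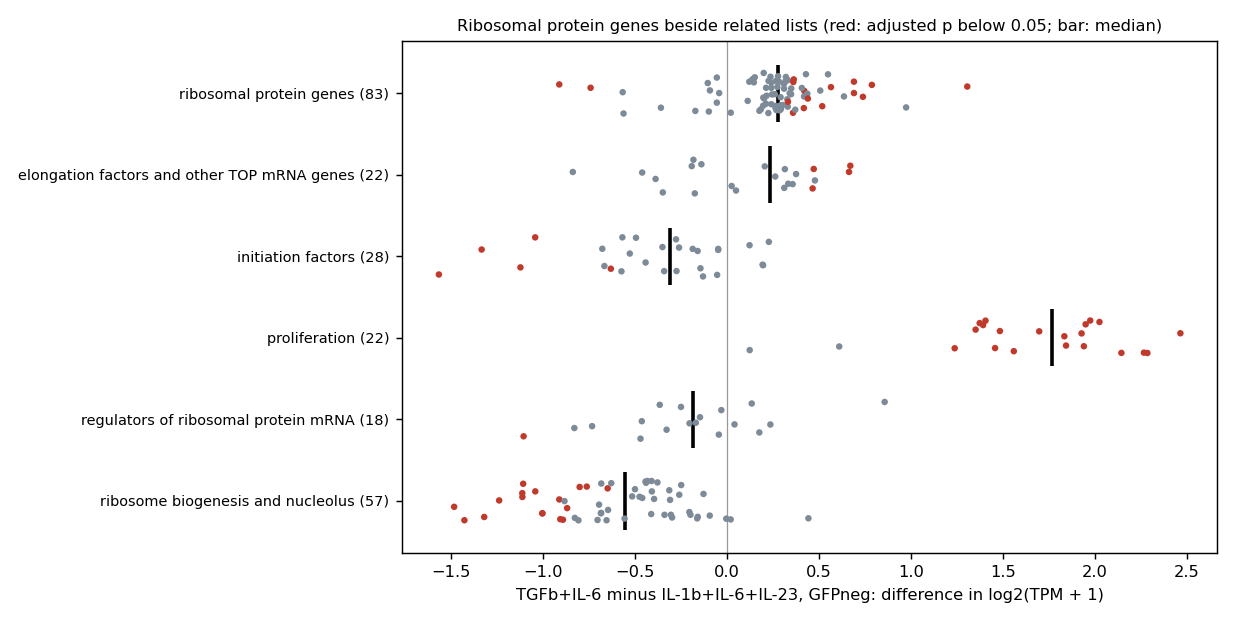
Difference in log2(TPM + 1) between TGFb+IL-6 and IL-1b+IL-6+IL-23 GFPneg cells (horizontal axis) for the 83 ribosomal protein genes and 5 related lists with their numbers of tested genes, with red for an adjusted p below 0.05 and bars at medians. The medians were 0.28 for the ribosomal proteins, -0.55 for ribosome biogenesis genes and 1.77 for proliferation genes.

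With IL-21 beside IL-12, most of the 83 genes had higher values in GFPneg cells, but none passed. Limma called 0 of 83, against 0.761% of all genes. An unadjusted p under 0.05 was found for 32 of the 83 and for 1311 of all 9592 genes. The median was 0.24, with 71 above 0, against -0.09 over all genes. With median-ratio scaling it was 0.37 with 76 above 0, and with scaling to the genes outside the 83 it was 0.35 with 74 above 0. The 2 libraries of each group did not overlap for 57 genes that were higher and 6 that were lower, against 14.6% and 27.8% of all. The smallest p belonged to Rps7, at 1344 and 1287 TPM in IL-12 and 1783 and 2042 in IL-12+IL-21 (0.54 ± 0.15, adjusted p = 0.111 by limma). Rpl10a was at 2463 and 2291 against 3145 and 3541 TPM (0.49 ± 0.14, adjusted p = 0.116), and Rpl5, which binds 5S RNA and Mdm2, at 2474 and 2149 against 3152 and 3383 (0.50 ± 0.15, adjusted p = 0.143). Rps27l was lower with IL-21, at 1454 and 1653 against 1015 and 1090 TPM (-0.56 ± 0.18, adjusted p = 0.173). The elongation factor gene Eef1a1, also a TOP mRNA, did pass, with group means of 6306 and 11076 TPM (0.82 ± 0.15, adjusted p = 0.0165). Its list as a whole did not rise. Of its 22 tested genes 2 were called higher and 0 lower, only 9 lay above 0, and the median was -0.11. Leaving out either library of either group, or median-ratio scaling, gave no member a call. Over all genes 30 were higher and 43 lower, against 38 and 23 with median-ratio scaling and 45 and 28 with scaling to the genes outside the 83.

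**Figure D5:**
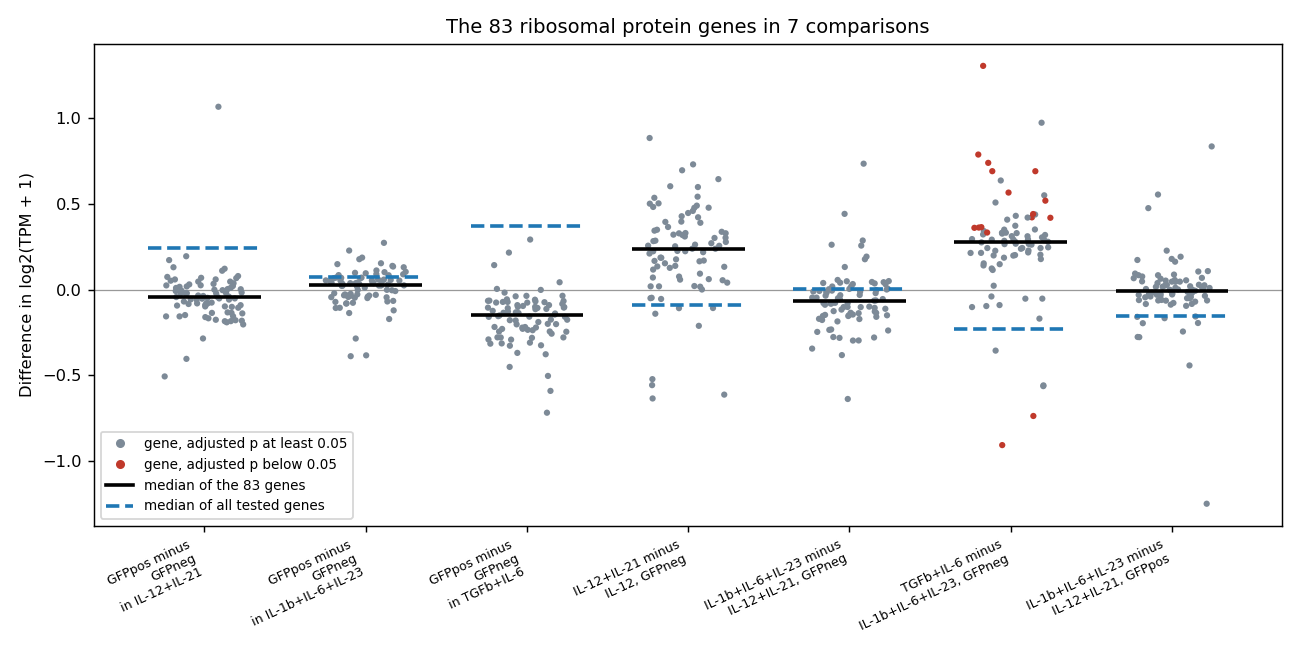
Difference in log2(TPM + 1) of each of the 83 genes (points, red for an adjusted p below 0.05) in 7 comparisons, with the median of the 83 (black) and of all tested genes (dashed). The 16 called genes all belong to TGFb+IL-6 minus IL-1b+IL-6+IL-23 (GFPneg), and in IL-12+IL-21 minus IL-12 the median of 0.24 stands without a call.

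Between GFPpos and GFPneg cells of the same culture none of the 83 genes passed. In IL-12+IL-21, 0 of the 83 genes were called (limma, 0.156% of all genes called). An unadjusted p under 0.05 was found for 0 of the 83, against 1392 of all 9592 genes. Their median was -0.04, with 27 above 0, against 0.24 over all genes. Groups did not overlap for 1 higher and 10 lower, against 26.3% and 3.93% of all. With median-ratio scaling the 83 had a median of -0.33, with 2 above 0, and all genes one of 0.01. Over all genes 11 were higher and 4 lower, and 3 and 6 with that scaling.

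In IL-1b+IL-6+IL-23, 0 passed (0.427% of all genes called by limma) and 1, Rpl7l1, had an unadjusted p under 0.05, against 809 of all 9592 genes. The median was 0.03, with 50 above 0, against 0.07 over all genes, and median-ratio scaling turned it to -0.04, with 26 of all genes higher and 13 lower in place of 33 and 8. Groups did not overlap for 0 higher and 2 lower, against 9.81% and 4.7% of all. Rpl7l1 stood at 99.2, 120 and 130 TPM in sorted GFPpos cells, below the 187, 132 and 142 TPM of GFPneg (-0.39 ± 0.17, adjusted p = 0.528). The difference of the 2 reporter effects, as an interaction, was called for 0% of all genes and 0 of the 83 (limma, with 474 of all genes and 0 of the 83 at an unadjusted p under 0.05).

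In TGFb+IL-6, where GFPpos was a single library, 0 of the 83 passed (0.323% of all genes called by limma), and 1, Rpl15, had an unadjusted p under 0.05. The GFPpos library lay below both GFPneg libraries for 68 genes and above both for 1, against 14% and 63.7% of all genes. The median was -0.15, with 5 above 0, against 0.37 over all, and -0.63 with 0 above 0 under median-ratio scaling, which called 7 of all genes higher and 12 lower in place of 25 and 6. Rpl22l1 was at 789 TPM against 1073 and 1575 (-0.72 ± 0.42, adjusted p = 0.391). When only these 3 libraries were fitted its difference was the same (-0.72) and it passed, but the spread then came only from the 2 GFPneg libraries. A larger share of all genes passed in that fit too. A single library carries no spread of its own, and in the fit over the 16 libraries it was taken to vary like the other groups.

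Between IL-1b+IL-6+IL-23 and IL-12+IL-21 none of the 83 genes passed in either sort. In GFPneg cells limma called 0 of 83 (3.41% of all genes). Of the 83, 2, Rpl10 and Rpl5, had an unadjusted p under 0.05, against 1200 of all 9592 genes. The median was -0.06 with 23 above 0, against 0.01 over all, and groups did not overlap for 1 higher and 12 lower, against 12.6% and 13.6% of all. Rpl10 was at 3460, 4403 and 4284 TPM against 4862 and 4919 (-0.28 ± 0.12, adjusted p = 0.318).

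In GFPpos cells 0 of 83 passed (4.96% of all genes called by limma). Of the 83, 2, Rps27rt and Rps4l, had an unadjusted p under 0.05, against 1510 of all 9592 genes. The median was -0.01 with 39 above 0, against -0.15 over all, and 0.21 with median-ratio scaling, against 0.02 over all. Of all genes 132 were higher and 344 lower, and 227 and 254 with that scaling. Groups did not overlap for 1 higher and 1 lower, against 4.16% and 16.1% of all. Rps27rt, which shares most of its windows with Rps27, differed by 0.48 ± 0.15 (adjusted p = 0.0917). Rps4l differed by -1.25 ± 0.47 (adjusted p = 0.178), at 1.30 to 2.88 TPM against 3.78 to 7.20. It was called when limma was fitted to only these 6 libraries (adjusted p = 0.029), where 473 of 8829 genes were called. The comparisons share groups, so their values are given separately and were not set against each other.

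Rps27a stayed between 5343 and 6744 TPM in all 16 libraries. Rps2, a small subunit protein near the mRNA entry, was at 744 and 2262 TPM in the 2 IL-12+IL-21 GFPneg libraries. Rps19bp1, whose product binds Rps19, lay at 20.0 to 58.2 TPM with its highest mean in IL-12 GFPneg. Rpl36al, a paralog of Rpl36a, was at 1510 to 3171 TPM, and its ratio to Rpl36a at 0.385 to 0.614, with the lowest group mean in the TGFb+IL-6 GFPpos library (0.397) and the highest in IL-1b+IL-6+IL-23 GFPneg (0.556).

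Outside the 83 genes, the rows whose 7 group means followed those of the members most closely, by Pearson's r with the mean of the members over 7 groups, were Rps15a-ps6 (0.965), Gadd45gip1 (0.964), Kif18b (0.964), Nucb2 (0.956) and Rn7s1 (0.954). The first may share reads with a member, and 7 points in 1 table are a description only. Group means of Kif18b were only 0.115 to 1.2 TPM and those of Nucb2 2.7 to 5.8 TPM, so their likeness rests on low values.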

How the data were processed

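RNA was measured with a modified SMART-Seq2 protocol (paired reads of 38 bases), per the labels' protocols. The authors deposited 1 table of TPM values for 23415 symbols in 21 libraries. RSEM 1.2.31, Bowtie2 2.2.9, Trimmomatic 0.32 and the build GRCm38 are named in the list of tools per the submitters' processing notes. Annotation, settings and use of strand are not given in the sources used here. Because the columns share 1 total, depth is unknown and no counting interval is given. All columns were tied to samples by name, and no 2 libraries were identical.

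The 83 members and the gene lists were chosen with earlier results of these data known. Libraries under 7000 genes at a TPM of at least 1 were left out. Genes that reached a TPM of 1 in 3 or more of the 16 libraries were kept, log2(TPM + 1) was fitted by group in limma 3.58.1 (R 4.3.3) with an intensity trend, and p-values of 7 comparisons, 1 interaction and 1 F test were each adjusted by Benjamini-Hochberg. A difference is on that log2 scale and understates changes of low genes. The fit was tested on simulated data. Genes were named by rule: up to 8 members a direction with the smallest adjusted p under 0.05, the 5 highest and lowest by level in each subunit, the 5 widest and narrowest ranges, a fixed set, up to 3 genes of each list, and the 5 nearest in pattern. Named after their values were seen were Rps2, Rpl5, Rpl15, Rpl31, Rpl10a, Rpl13, Rps13 and Rps15a as results, members named only for shared windows or for groups that do not overlap, and the list members Rack1, Vim, Impdh2, Eif4g2, Eif2b1 and Polr1c. The values of single withheld genes are not reported here, though counts and shares include them. Starts came from RefSeq (GRCm38.p6), and sequences of chromosome 18 were not used. Shared windows were counted in GENCODE M21 transcripts. Alternatives were other pseudocounts, filters and scalings, a replicate block, only the compared libraries, other sets of libraries and each library left out.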

Additional observations from a re-analysis of the deposited data

Results flagged for a closer look

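Of the 5 libraries left out of the comparisons, 4 held more of their TPM in ribosomal protein genes than any of the 16 used, of which the highest had 42.4%. The share of the 83 genes was 53.6% in IL-12 GFPneg replicate 1, 56.7% in TGFb+IL-6 GFPpos replicate 2, 49.4% in TGFb+IL-6 GFPneg replicate 3 and 44.4% in IL-12+IL-21 GFPneg replicate 3. The remaining one, TGFb+IL-6 GFPpos replicate 3, had 28.1%.

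Rpl41 alone took 12.5% of TPM in IL-12 GFPneg replicate 1, 10.8% in TGFb+IL-6 GFPpos replicate 2 and 5.14% in TGFb+IL-6 GFPneg replicate 3, against 1.91% to 2.84% in the 16. In the first of these the 15 proteins proper with the shortest transcripts (up to 552 bases) lay at a median log2 difference of 0.64 from their mean over the 16 libraries and the 15 with the longest (from 1020 bases) at -1.19. In TGFb+IL-6 GFPpos replicate 2 these medians were 0.20 and -0.59, while in the 16 short minus long lay between -0.13 and 0.15. Of the others left out, it was 9.56 in TGFb+IL-6 GFPneg replicate 3, and -0.48 in IL-12+IL-21 GFPneg replicate 3 and -0.21 in TGFb+IL-6 GFPpos replicate 3, the opposite direction. The part of length in these shares was not tested. TGFb+IL-6 GFPneg replicate 3 listed 41 of the 83 genes at 0.

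Rpl7l1 differed in opposite directions by reporter status in 2 cultures, with no overlap of libraries in either. The log2 difference of GFPpos from GFPneg was -0.39 in IL-1b+IL-6+IL-23 (3 against 3 libraries) and 0.29 in TGFb+IL-6 (1 against 2). The difference between these effects was not tested, and neither passed by itself. Of all genes 4.7% lay lower without overlap in the first culture and 63.7% higher in the second. The median over all genes in TGFb+IL-6 was 0.37, above the value of Rpl7l1.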

How the results depend on the processing

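With 1 library left out, calls among the 83 genes between TGFb+IL-6 and IL-1b+IL-6+IL-23 GFPneg ranged from 2 to 18 (1 to 16 higher, 1 to 2 lower), those of the F test from 5 to 17, ribosome biogenesis genes called lower from 4 to 13, and proliferation genes called higher from 18 to 20. No filter on low values gave 6 calls (4 higher) and 6 in the F test, with 9 biogenesis genes. In the same comparison 938 of 23415 genes were then called, against 1478 of 9592 with the filter. Median-ratio scaling gave 1 lower and 6 in the F test. With all 21 libraries, and with 18 (added after the data were seen), the counts were 0 for members in either direction and in the F test, 0 for biogenesis, and 0 and 1 for proliferation. Over all genes that comparison then had 16 calls with 21 libraries and 108 with 18. With 18 the compared libraries and their folds were the same, and the estimate of the spread differed. With all 21, which add TGFb+IL-6 GFPneg replicate 3, 42 of the 83 lay above 0 in place of 71, and 8 of the 14 called higher turned: Rpl10a (-3.59), Rpl22l1 (-2.14), Rpl37 (-2.97), Rps13 (-3.83), Rps15a (-2.08), Rps20 (-2.17), Rps7 (-3.24) and Rps9 (-3.83). Each of these 8 was listed at 0 in that library, which had 190 genes at a TPM of at least 1. The rest of the 14 were above 0 there and did not turn. Fitting only the compared libraries called Rpl22l1 by reporter status in TGFb+IL-6, with a single GFPpos library, and Rps4l between the GFPpos cultures. A larger share of all genes was also called in both fits. The cause was not tested.

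Group shares moved as follows. Without the RNR and TRN rows the large and small subunits held 18.4% and 14.1% in IL-12 GFPneg and 24.3% and 19.1% in TGFb+IL-6 GFPneg. All 21 libraries gave 22.6% and 16.3% in IL-12 GFPneg, 24.7% and 19.9% in TGFb+IL-6 GFPneg and 23.6% (large) in TGFb+IL-6 GFPpos. With 18 these were 22.6% and 16.3% in IL-12 GFPneg and 27.6% and 19.7% in TGFb+IL-6 GFPpos. Without Rpl41 the large subunit held 15.6% in IL-12 GFPneg, 17.9% (GFPpos) and 17.7% (GFPneg) for IL-1b+IL-6+IL-23, 17.8% in IL-12+IL-21 GFPpos, 18.4% in its GFPneg cells, 19.1% in TGFb+IL-6 GFPpos and 21% in TGFb+IL-6 GFPneg. Leaving out only the libraries with at least 10% of TPM in Rpl41, in place of the gene minimum, gave 18.5% and 14.5% in TGFb+IL-6 GFPpos and 24.7% and 19.9% in TGFb+IL-6 GFPneg. With both criteria the 16 libraries were the same.

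The replicate number as a block gave 15 higher and 2 lower and 13 in the F test, and no other count of member calls moved. Same-numbered libraries of the IL-1b+IL-6+IL-23 cultures did not deviate together (r = -0.09 to 0.07, and -0.04 to 0.20 over the other comparisons), so the numbers were not taken as a pairing.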
